A study of Homo sapiens with 105 samples.

Results

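G0S2 and the genes around it in the storage of neutral lipid were followed in Vk2/E6E7 cells, an immortalized human vaginal epithelial cell line and the single line of the study, after 6 h with pro-inflammatory compounds (PICs) or non-inflammatory compounds (NICs). There were 8 members, of 19775 genes that at least 1 probeset of the Affymetrix U133 Plus 2.0 array names alone: G0S2, PNPLA2, ABHD5, PLIN2, PLIN3, HILPDA, DGAT1 and DGAT2. The members were chosen by the rise of the G0S2 signal over control in these data, so that the differences of G0S2 from control are given as a description without a test. All 8 members were measured, by 15 probesets (groups of probes for 1 transcript) in all, and none was removed for low signal. Each gene is given by its brightest probeset, and others are given where they bear on a call.

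Of 105 arrays 103 were compared. Growth medium alone (GM) was the control, with 53 arrays. The PICs were the cytokine TNF-α at 40 ng/ml (5 arrays), the TLR2 ligands Pam3CSK4 at 10 µg/ml and MALP2 (macrophage activating lipopeptide 2) at 200 ng/ml, the TLR7 ligand imiquimod (IMQ) and the spermicidal detergent nonoxynol-9 (N-9) at 12.5 µg/ml. Pam3CSK4, MALP2 and IMQ had 6 arrays each, and N-9 had 9. The labels give the IMQ dose as 30 mg/ml and the study's methods give the same figure per ml in µg, so the dose is uncertain by its unit. The NICs were the cellulose gels HEC (hydroxyethyl cellulose) and CMC (carboxymethyl cellulose) at 1 mg/ml, with 9 arrays each. GM replicate 52, whose values correlated with no other array above r = 0.0484, and TNF-α replicate 6, which equalled the mean of replicates 1 to 3 within 7.67e-09, were left out.

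Neutral lipid is stored as triacylglycerol in droplets that bud from the endoplasmic reticulum. DGAT1 and DGAT2 add the last fatty acid, perilipins such as PLIN2 and PLIN3 coat the droplet, and the lipase PNPLA2 (ATGL) starts its breakdown with the help of the co-activator ABHD5 (CGI-58). G0S2 and HILPDA bind PNPLA2 and inhibit it, and G0S2 was first named as a gene of resting blood cells that re-enter the cycle.

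Values below are log2 signals after quantile normalization, and a difference of 1 is a 2-fold change. Epithelial markers had a probeset for 6 of 8 genes, all above at least 97.3% of probesets in GM, and their summed level ranged from 16.51 to 17.01 over all arrays. Of 7 adipocyte and 8 leukocyte markers with a probeset, none was above more than 64.8% of probesets, although the summed adipocyte level ran from 8.53 to 11.23 in GM and from 10.17 to 11.31 with Pam3CSK4. The markers that passed the test in limma were FABP4 with Pam3CSK4 (2.62, adjusted p = 0.0173), the adipocyte marker CFD with N-9 (-1.42, adjusted p = 0.000126), the monocyte marker CD14 with IMQ (-1.59, adjusted p = 0.0252) and LAMB3, the laminin chain of epithelial basement membrane, with IMQ (0.93, adjusted p = 0.0104) and N-9 (0.88, adjusted p = 0.00176). Their part in the results below was not tested. Of 7 fibroblast and endothelial markers only COL1A1 was bright, above 91.0% of probesets, and the next, PECAM1, was above 70.8%. In a bulk sample, fewer cells of a type and less RNA per cell cannot be told apart.

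Arrays did not vary singly. Consecutive replicate numbers in 3s, here called a run, lay close together: for G0S2 in GM the SD within a run was 0.424, against 0.997 between the means of 18 runs. In addition, the deviations from their group means of 5 runs (15 arrays: GM 4 to 9, N-9 4 to 6, HEC 4 to 6 and CMC 1 to 3) correlated with each other at r = 0.48 to 0.88 over 27295 probesets, members excluded, and no other run correlated with the first of them above 0.22. Both are partly fixed by the measure. The runs were picked by r above 0.5 with GM 4 to 6. In a group of 2 runs the deviations mirror each other, and a group wholly of such arrays would not show. These 15 arrays were first noticed by their low PLIN2, and the rule that defines them was made after the data were seen. No label calls them a batch. Results for all 103 arrays come first, followed where they differ by the values inside and outside the 15. SEs, intervals and p-values take the arrays as independent unless runs are given as a random block. They are too small or too narrow where runs differ more than the arrays of a run. Inside the 15, each treatment is a single run, so p-values there measure the spread of arrays and not that of runs.

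Promoters are shown for the 3 members whose RNA was further from GM in at least 1 PIC, or in part of the arrays, and for which RefSeq (GRCh38.p14) gave one in the table used. The table matched 5 of the 8 members. Each stretch is the 250 bases before the start of the gene, and capitals mark the motifs that were found.
G0S2 (chr1:209675162-209675411, + strand): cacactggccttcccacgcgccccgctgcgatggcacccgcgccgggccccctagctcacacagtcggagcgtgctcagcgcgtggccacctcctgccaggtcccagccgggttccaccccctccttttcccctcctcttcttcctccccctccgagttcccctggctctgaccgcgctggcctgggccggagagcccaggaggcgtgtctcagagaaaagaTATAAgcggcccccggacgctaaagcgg
ABHD5 (chr3:43690620-43690869, + strand, the first of its starts): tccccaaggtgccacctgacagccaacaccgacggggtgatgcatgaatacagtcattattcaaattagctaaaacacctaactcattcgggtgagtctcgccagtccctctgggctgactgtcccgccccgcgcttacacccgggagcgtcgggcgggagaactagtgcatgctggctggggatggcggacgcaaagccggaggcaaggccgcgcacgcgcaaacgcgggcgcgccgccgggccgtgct
PLIN2 (chr9:19127493-19127742, - strand): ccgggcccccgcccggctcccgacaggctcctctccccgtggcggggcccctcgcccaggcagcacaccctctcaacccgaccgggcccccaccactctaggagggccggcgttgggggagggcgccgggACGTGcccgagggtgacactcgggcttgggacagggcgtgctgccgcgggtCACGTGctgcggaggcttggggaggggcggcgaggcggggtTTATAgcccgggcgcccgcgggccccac

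Motifs were searched on both strands. TATAA, the core of the TATA box, was in the G0S2 window 28 bases before the start and is in 18.9% of 35116 such windows. ACGTG, the core to which hypoxia-inducible and other bHLH factors bind, was in the PLIN2 window 120 bases before the start and again at 69 and 68, where both strands match within CACGTG. It is in 18.5% of windows. The PLIN2 window also held TATAA at 28, on the strand opposite to the one printed, which reads TTATA there. None of these windows held the NFκB consensus (9.96% of windows) or the AP-1 motif TGANTCA (6.57%), and the ABHD5 window held no motif of the 4. A match is a description of the letters and not a site of binding.

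G0S2, the inhibitor of PNPLA2, was among the brighter genes of the resting cells, with a level above 91.8% of probesets in GM. Over 53 GM arrays it ran from 9.54 to 14.05, with a median of 11.08 and a mean of 10.99 ± 1.05 (SD). The 14.05 was a single array, in a run with a mean of 12.04 and an SD of 1.74. The highest run mean of GM was 12.84 (SD 0.17). In TNF-α the 5 arrays read 14.27, 14.11, 14.29, 12.64 and 12.63. The first 3 stood above all GM arrays and the others within them. The range with Pam3CSK4 was 12.22 to 13.26 (median 12.67), with MALP2 13.11 to 13.55 (13.28), and with IMQ 12.63 to 14.35 (13.44). All arrays of these 3 TLR ligands lay above the GM median, as was the case for 8.30%, 8.22% and 9.95% of probesets, and 3 of the 6 IMQ arrays lay above every GM array. N-9 was uneven, from 10.90 to 13.85 (median 13.23), with 6 of 9 arrays above the GM median.

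**Figure D1:**
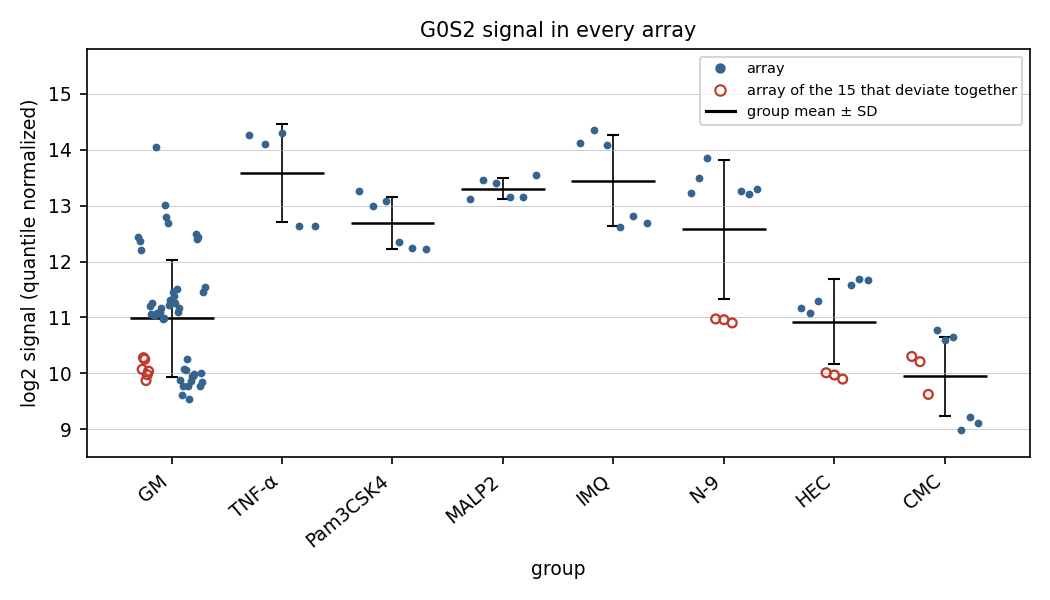
Log2 signal of G0S2 (vertical axis) in each array of the 8 groups (horizontal axis). Points are arrays, open red points the 15 arrays that deviate together, and bars the group mean ± SD. The PIC groups have means from 12.58 to 13.59, above the GM mean of 10.99, while a single GM array reaches 14.05.

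The G0S2 means differed from GM, in the order TNF-α, Pam3CSK4, MALP2, IMQ and N-9, by 2.60 (SE 0.44), 1.70 (0.41), 2.32 (0.41), 2.46 (0.41) and 1.59 (0.34), which is 6.07-, 3.25-, 4.99-, 5.50- and 3.01-fold. In the same order 24, 217, 120, 107 and 343 of 54613 probesets had a higher difference, which the choice of G0S2 by its rise makes a description. In the order of the means, TNF-α (13.59 ± 0.87), IMQ (13.45 ± 0.82) and MALP2 (13.31 ± 0.19) differed by less than the SD of TNF-α or IMQ, and so did Pam3CSK4 (12.69 ± 0.47) and N-9 (12.58 ± 1.24) by less than either SD. No pair of PICs was tested for G0S2. Among the gels, HEC ran from 9.90 to 11.69 (median 11.16) and CMC from 8.99 to 10.77 (10.21). HEC lay within GM and differed from it by -0.06 (SE 0.34). All 9 CMC arrays lay below the GM median (0.784% of probesets), 3 of them below every GM array, and the difference was -1.04 (SE 0.34).

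HEC and CMC share a cellulose backbone and differ in the group it carries, hydroxyethyl or the charged carboxymethyl. Dose and time were matched, and the gels were compared directly, a contrast that had no part in the choice of G0S2. G0S2 was 0.98 higher with HEC (95% CI 0.10 to 1.86), which did not pass after adjustment in limma (adjusted p = 0.655). No probeset passed in this comparison, while 7.10% of 54613 had an unadjusted p under 0.05. None of the other 7 members was called either. The interval takes the 9 arrays of a gel as independent, although they came in 3 runs. For G0S2 the SD within a run was 0.077 (HEC) and 0.228 (CMC), against 0.871 and 0.786 between run means. The interval is therefore too narrow, and neither the size nor the direction of the difference is settled.

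G0S2 was lower in the 15 arrays in most groups. In GM it was 10.08 ± 0.16 inside (n = 6) and 11.10 ± 1.06 outside (n = 47). With N-9 it was 10.94 ± 0.04 inside (n = 3) and 13.39 ± 0.25 outside (n = 6), differences of 0.86 and 2.29 from the GM arrays of the same kind. All 3 N-9 arrays inside (10.90 to 10.97) lay above the 6 GM arrays inside (9.87 to 10.28), an arrangement whose share over all probesets was not counted. Those outside (13.21 to 13.85) lay within the range of GM there only because a single GM array reached 14.05. They lay above the highest run mean of GM, 12.84 (SD 0.17). These differences depend on the GM arrays that are pooled. N-9 1 to 3 had a mean of 13.524, against 12.335 in GM 1 to 3, with which they deviated together (r = 0.285 to 0.33). For replicates 4 to 6 the means were 10.944 with N-9 and 10.2 in GM. CMC differed from GM by -0.04 inside (n = 3) and -1.21 outside (n = 6). HEC read 9.96 inside and 11.41 outside, and without the 15 arrays HEC exceeded CMC by 1.52 (SE 0.51, adjusted p = 0.235).

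Among the other 7 members, 2 passed the test with IMQ (ABHD5 higher, DGAT2 lower) and 1 with N-9 (DGAT2 lower). None passed with TNF-α, Pam3CSK4, MALP2, HEC or CMC, at an adjusted p under 0.05 in limma. Of all 54613 probesets, 10.9% were called with IMQ, 17.4% with N-9, 6.95% with MALP2, 2.17% with Pam3CSK4, 0.720% with TNF-α, 0.793% with HEC and 0.00183% with CMC (7.14% at an unadjusted p under 0.05). The number of members called is not far from those shares and is not read as a result about the members as a set. Their median difference was between -0.17 (N-9) and 0.07 (CMC), and that of all probesets lay within 0.02 of 0.

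**Figure D2:**
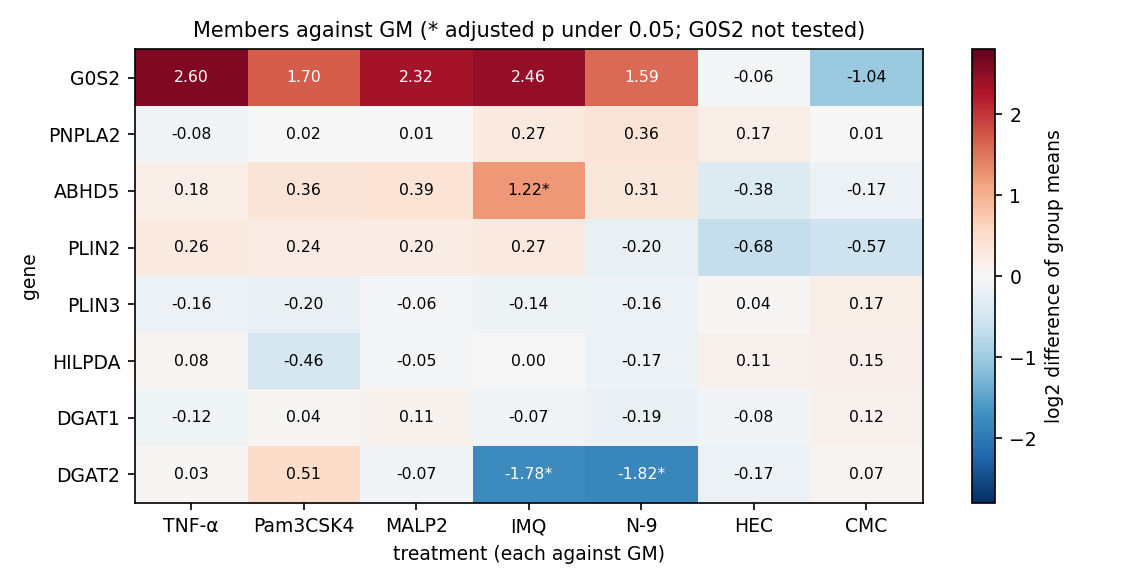
Log2 difference from GM (colour and number) for each member (rows) and treatment (columns). An asterisk marks an adjusted p under 0.05, and G0S2 was not tested. G0S2 has 5 positive differences of 1.59 or more, and the calls are ABHD5 with IMQ (1.22) and DGAT2 with IMQ (-1.78) and N-9 (-1.82).

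PNPLA2, the lipase that G0S2 restrains, was not called in any treatment. Its GM level was 9.83 ± 0.36 (9.13 to 10.57). Across TNF-α, Pam3CSK4 and MALP2 its difference from GM was between -0.08 and 0.02, and its dimmer probeset gave -0.82 (TNF-α), 0.40 and -0.02, none called. With N-9 the difference was 0.36 (SE 0.15, adjusted p = 0.0819), with arrays from 9.37 to 10.93 and 3 of 9 above every GM array. Those 3 were among the 15, where GM itself was 10.32 against 9.77 outside. N-9 exceeded GM by 0.54 inside (adjusted p = 0.125) and by 0.09 outside (adjusted p = 0.722). With N-9 replicate 7, 8 or 9 left out, 1 at a time, the difference over all arrays was 0.42 to 0.46 and passed (adjusted p = 0.0236 to 0.0474).

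ABHD5, the co-activator of PNPLA2, rose with IMQ. It ran from 7.26 to 9.33 in GM (median 8.34) and from 9.41 to 9.76 with IMQ (median 9.59). All 6 IMQ arrays lay above every GM array, an arrangement found for 0.635% of probesets. The difference was 1.22 (SE 0.18, 2.33-fold, adjusted p = 5.32e-08). Of the other probesets of the gene, the brighter ones gave 1.34 and 1.06, both called, whereas the dimmest gave -0.67 (adjusted p = 0.489). For the mean of the 4 probesets the adjusted p was 0.00159 with a difference of 0.74. RNA quality was followed by how far the ACTB signal at the 3′ end exceeded that at the 5′ end (log2), which was 0.96 ± 0.52 for IMQ and 0.44 ± 0.24 for GM, and its part in the IMQ results was not tested.

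ABHD5 with the other PICs stood at 8.38 to 8.74 (TNF-α), 8.64 to 8.81 (Pam3CSK4) and 8.39 to 9.14 (MALP2), within the range of GM. IMQ exceeded TNF-α by 1.04, Pam3CSK4 by 0.86, MALP2 by 0.83 and N-9 by 0.91. These differences were adjusted over all probesets and 9 pairs of PICs together, and all 4 passed, with adjusted p from 0.00285 to 0.0188. The shares of all probesets called in these pairs were 3.05%, 3.59%, 2.79% and 8.44%. With runs as a random block, the differences of IMQ from Pam3CSK4 and MALP2 no longer passed (highest adjusted p = 0.11), and that from N-9 did not pass when only these arrays were fitted (0.0797). N-9 was split by run. Its first 6 arrays read 7.91 to 8.45 and the last 3 read 9.57, 9.57 and 9.29, of which 2 were above every GM array. With all arrays N-9 differed from GM by 0.31 (SE 0.15, adjusted p = 0.140), which did not pass. Inside the 15 arrays, where N-9 is a single run, the difference was 0.61 (adjusted p = 0.0317) and outside it was 0.42 (adjusted p = 0.051). The run means of N-9 went from 8.25 to 9.48, a spread that the p-value inside does not measure. With HEC outside the 15 the brightest probeset was -0.40 from GM (adjusted p = 0.181) and did not pass, whereas another probeset of ABHD5 did (-0.55, adjusted p = 0.0479).

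**Figure D3:**
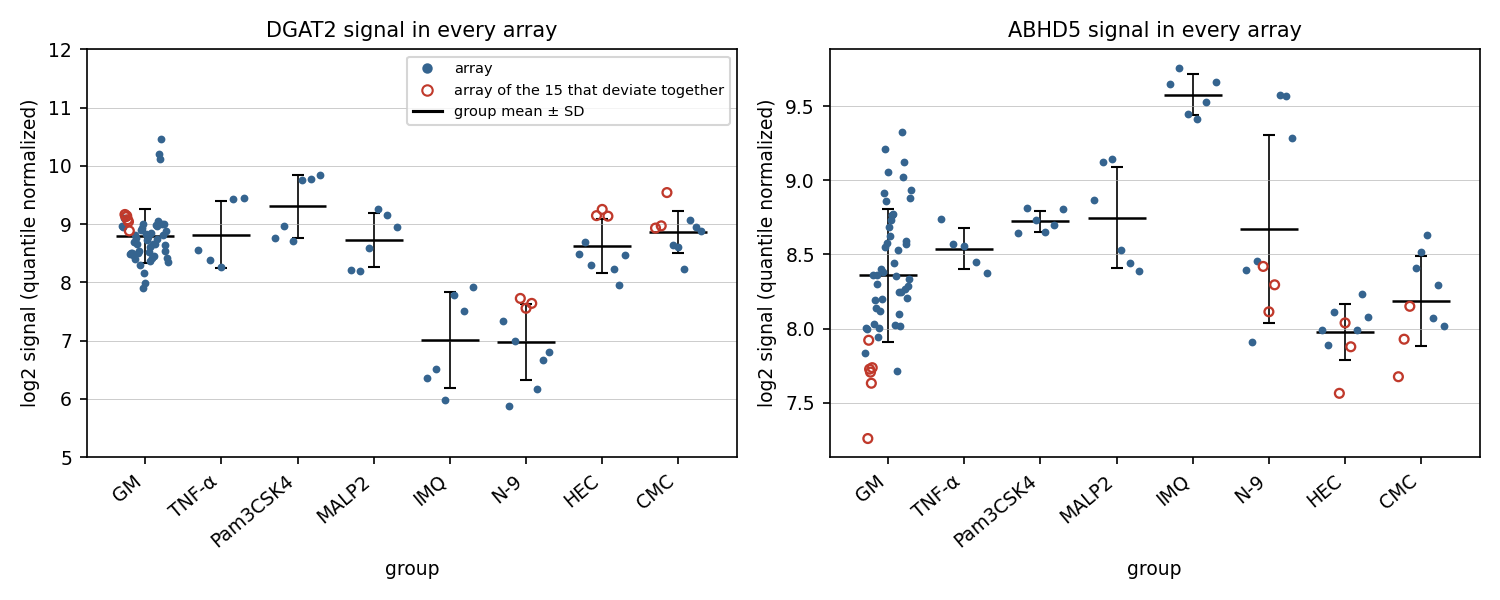
Log2 signal of DGAT2 (left) and ABHD5 (right) in each array, by group. Points are arrays, open red points the 15 arrays that deviate together, and bars the group mean ± SD. All N-9 arrays and 5 of 6 IMQ arrays lie below every GM array for DGAT2, and all 6 IMQ arrays lie above every GM array for ABHD5.

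DGAT2, which completes triacylglycerol, fell with IMQ and with N-9. In GM it ran from 7.90 to 10.46 (median 8.77). IMQ arrays ran from 5.97 to 7.92 (median 7.01) and N-9 arrays from 5.88 to 7.72 (median 7.00). All 9 N-9 arrays lay below every GM array, which 0.0641% of probesets showed, and so did 5 of the 6 IMQ arrays. The difference from GM was -1.78 with IMQ (SE 0.22, 3.44-fold, adjusted p = 4.91e-10), and -1.82 with N-9 (SE 0.18, 3.52-fold, adjusted p = 1.23e-13). Another probeset of DGAT2 gave -2.06 and -1.71, both called. The difference with N-9 was -1.43 inside the 15 arrays (adjusted p = 3.17e-05), where N-9 is a single run. Outside it was -2.11 (adjusted p = 1.29e-12), and the test between these parts did not pass (0.68, SE 0.39, adjusted p = 0.300). The 2 runs of IMQ had means of 6.28 and 7.74. The second run was also the higher with TNF-α (8.403 and 9.444), Pam3CSK4 (8.815 and 9.792) and MALP2 (8.332 and 9.118). Each run was set against the pooled GM arrays, so whether the size of the IMQ fall varied by run cannot be told.

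With the remaining PICs, DGAT2 read 8.55, 8.39, 8.27, 9.44 and 9.45 in TNF-α, 8.71 to 9.85 with Pam3CSK4 and 8.20 to 9.26 with MALP2, all inside GM. The differences from GM were 0.03, 0.51 and -0.07, none of them called. IMQ was lower than TNF-α by 1.81, than Pam3CSK4 by 2.29 and than MALP2 by 1.71. N-9 was lower than the same PICs by 1.84, 2.33 and 1.75. All 6 passed over the 9 pairs, with adjusted p at most 1.83e-05, in pairs with N-9 that called 6.75%, 8.77% and 10.0% of all probesets. With the 4 of ABHD5 these made 10 of the 63 combinations of member and pair, beside 4.97% of all combinations of probeset and pair. Pam3CSK4 and MALP2, lipopeptides that differ in their number of acyl chains, were given at different doses and were not compared.

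DGAT1, the other acyltransferase, was not called in any treatment and stayed between -0.19 (N-9) and 0.12 (CMC) of GM, whose level was 8.04 ± 0.39. Its N-9 arrays ran from 7.44 to 8.09. The DGAT2 arrays of N-9 lay below every GM array, and those of DGAT1 lay within it. CMC arrays of DGAT1 ran from 7.51 to 9.05, the highest 3 of them among the 15.

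HILPDA, the hypoxia-induced inhibitor of PNPLA2, was not called in any treatment over all arrays. In GM it was 10.01 ± 0.46 (8.85 to 10.89). TNF-α arrays read 10.20, 10.19, 10.09, 9.99 and 9.96, and IMQ arrays ran from 9.67 to 10.34. The difference from GM was 0.08 with TNF-α, 0.00 with IMQ and -0.05 with MALP2. Pam3CSK4 was lower, from 9.37 to 9.66, by -0.46 (SE 0.18, adjusted p = 0.196), which did not pass. With N-9 and all arrays the difference was -0.17 (SE 0.15, adjusted p = 0.485).

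That N-9 value joined unlike parts. Inside the 15 arrays HILPDA was 10.39 ± 0.13 in GM (n = 6) and 9.27 ± 0.18 with N-9 (n = 3), a difference of -1.12 (SE 0.14, adjusted p = 0.000177), where 13.8% of probesets were called with N-9, 0 with HEC and 0.00366% with CMC. Outside them it was 9.96 ± 0.46 in GM and 10.12 ± 0.23 with N-9, a difference of 0.16 (adjusted p = 0.578). HILPDA was thus lower with N-9 in the 15 arrays, where N-9 is a single run, and elsewhere within the range of the pooled GM arrays. Outside, N-9 1 to 3 had a mean of 10.257, against 10.803 in GM 1 to 3, with which they deviated together (r = 0.285 to 0.33). With GM 1 to 9 as the sole controls, 6 of them among the 15, the N-9 difference was -0.691 (adjusted p = 0.00153 in limma). The test of inside against outside pooled the GM arrays of each part and was added after the data were seen. It gave -1.29 (SE 0.32, adjusted p = 0.00248) in limma, the 1 of 21 combinations of member and treatment that passed. This test called 12.3% of all probesets for N-9, 0.0165% for HEC and 1.14% for CMC. Another HILPDA probeset gave -1.26 inside (adjusted p = 0.00202) and 0.48 outside (adjusted p = 0.0738).

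**Figure D4:**
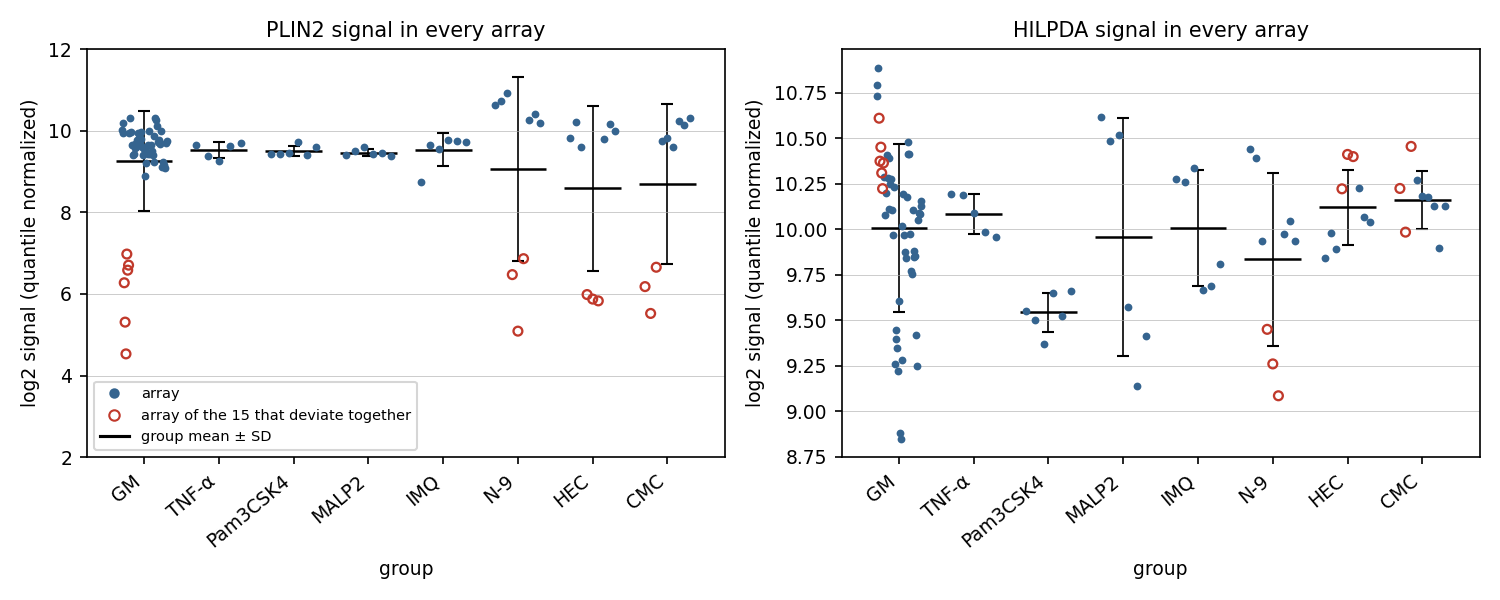
Log2 signal of PLIN2 (left) and HILPDA (right) in each array, by group. Points are arrays, open red points the 15 arrays that deviate together, and bars the group mean ± SD. The 15 arrays of PLIN2 lie between 4.53 and 6.98 in all 4 groups that hold them, under every other array, and the 3 N-9 arrays among them are the lowest of N-9 for HILPDA.

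PLIN2, the perilipin that most cells put on their droplets, was not called in any treatment over all arrays. With N-9 the difference was -0.20 (SE 0.50, adjusted p = 0.843). PLIN2 was at 4.53 to 6.98 in the 15 arrays of GM, N-9, HEC and CMC and at 8.73 to 10.93 in the other 88. No array lay between, and how many other probesets part these arrays in this way was not counted. Within the 15 the means were 6.06 in GM, 6.14 with N-9, 5.90 with HEC and 6.12 with CMC.

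Outside the 15 arrays PLIN2 was 9.67 ± 0.34 in GM (8.89 to 10.33, n = 47) and 10.53 ± 0.29 with N-9 (10.19 to 10.93, n = 6), and 4 of these 6 lay above every GM array. The difference was 0.86 (SE 0.13, adjusted p = 4.45e-07), among 19.5% of probesets called. It was 0.86 (adjusted p = 0.000146) with random blocks of runs as well, and 0.65 (adjusted p = 0.000384) over all arrays with the 15 as a block. Inside them the difference was 0.08 (adjusted p = 0.955), and the test between inside and outside gave -0.78 (adjusted p = 0.117). All of these were chosen after the low PLIN2 of the 15 had been seen. The dimmer PLIN2 probeset went the other way with N-9, by -1.33 outside (adjusted p = 0.00712) and by 1.63 inside (adjusted p = 0.0327), and it was not much lower in the GM arrays of the 15 (5.96) than in the others (6.56). The probesets of PLIN2 thus disagree on N-9, and the gene has no settled direction here.

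PLIN2 outside the 15 arrays was 9.53 ± 0.19 with TNF-α, 9.47 ± 0.08 with MALP2, 9.94 ± 0.23 with HEC and 9.98 ± 0.29 with CMC. None of these passed against GM, where the shares of probesets called without the 15 were 1.18% with TNF-α, 9.28% with MALP2, 1.72% with HEC and 0 with CMC. PLIN3, the perilipin that moves from the cytosol to young droplets, was bright in GM, 10.48 ± 0.36 (9.53 to 11.01), and its difference ran from -0.20 (Pam3CSK4) to 0.17 (CMC) with no call. With N-9 outside the 15 arrays it was -0.34 (adjusted p = 0.0607).

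Other genes of lipid storage and use were taken from a list of 61, of which 56 had a probeset that names them alone. With TNF-α, HEC and CMC none of the 56 passed, and with Pam3CSK4 1 did, against 7 with MALP2 (4 higher, 3 lower), 6 with IMQ (4 higher, 2 lower) and 17 with N-9 (4 higher, 13 lower). The directional shares of all probesets were 3.28% higher and 3.68% lower with MALP2, 4.68% and 6.19% with IMQ, and 7.34% and 10.1% with N-9. Of the N-9 calls, 13 also passed without the 15 arrays and 8 with the runs as a random block. The same counts were 6 and 4 for MALP2, 6 and 6 for IMQ and 1 and 0 for Pam3CSK4, and without the 15 arrays 13.5% of all probesets were called with IMQ and 3.57% with Pam3CSK4. A median difference between -0.12 (HEC) and 0.01 (IMQ) was found over the 56.

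In triacylglycerol synthesis (16 genes), GPAT3 and GPAM opened the list. Both attach the first fatty acid to glycerol-3-phosphate, at the endoplasmic reticulum and at mitochondria, respectively. GPAT3 rose by 2.76 with IMQ (6.75-fold, adjusted p = 8.80e-10), 1.45 with MALP2 (adjusted p = 0.00246) and 0.97 with N-9 (adjusted p = 0.0101), and the last was 2.08 without the 15 arrays. GPAM fell with N-9, by a difference of -0.97 (adjusted p = 6.38e-08), and with MALP2, -0.63 (adjusted p = 0.00992), the latter not past the threshold once runs were a random block (0.0568). GPAT4, another enzyme of this first step, fell with N-9 as well (-0.90, adjusted p = 3.23e-08), so that with N-9 GPAT3 rose while GPAM and GPAT4 fell.

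Of 15 genes of droplet formation and coat, CIDEB, a droplet protein of the CIDE family, fell with IMQ (-0.66, adjusted p = 0.00258). FAF2, which takes part in protein turnover at droplets, fell with N-9 (-0.44, adjusted p = 1.79e-06). FITM2, which helps droplets to form, fell with MALP2 (-0.46, adjusted p = 0.00229). HSD17B11, a droplet-associated dehydrogenase, fell with MALP2 (-0.64, adjusted p = 0.0478; 0.273 with runs as random blocks). CIDEB in N-9 and PLIN5, a perilipin of oxidative tissue, were called as well (-0.37 and 0.37) and did not pass once runs were a random block (0.237 and 0.215).

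Among 10 genes of lipolysis and fatty acid binding, MGLL, which splits the last glyceride of the cascade, rose with IMQ (0.93, adjusted p = 7.91e-07) and MALP2 (0.59, adjusted p = 0.00374). LIPA, the acid lipase of lysosomes, fell with N-9 (-0.68, adjusted p = 3.47e-08) and IMQ (-0.47, adjusted p = 0.00213). FABP5, an epidermal fatty acid binding protein, fell with N-9 (-0.47, adjusted p = 0.0150). FABP4, which binds fatty acids in adipocytes, was 2.62 higher with Pam3CSK4 (SE 0.68, adjusted p = 0.0173) and did not pass once runs were a random block (0.102).

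In uptake, PPAR and oxidation (15 genes), PPARD, the fatty acid-activated receptor of keratinocytes, rose with IMQ (1.34, adjusted p = 2.88e-08) and MALP2 (1.08, adjusted p = 1.29e-05). It was called with N-9 as well (0.505, adjusted p = 0.0144), though not with runs as a random block (0.0528). Without the 15 arrays its N-9 difference was 0.89 (adjusted p = 9.41e-05). VLDLR, a lipoprotein receptor, rose with IMQ (0.96, adjusted p = 0.00131). CPT2, which hands fatty acids to mitochondrial oxidation, fell with N-9 (-0.83, adjusted p = 0.000260). ANGPTL4, an inhibitor of lipoprotein lipase, was 1.26 higher with MALP2 (adjusted p = 0.0375; runs as a random block 0.0979) and lower with N-9 (-0.94, adjusted p = 0.0393; 0.0835 with that block), the latter -0.61 without the 15 arrays (adjusted p = 0.352). PDK4, a kinase that holds back glucose oxidation, was 1.25 higher with N-9 (adjusted p = 0.00687; 0.232 with that block). The mean of PDK4 in GM was 4.16, a dim level.

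**Figure D5:**
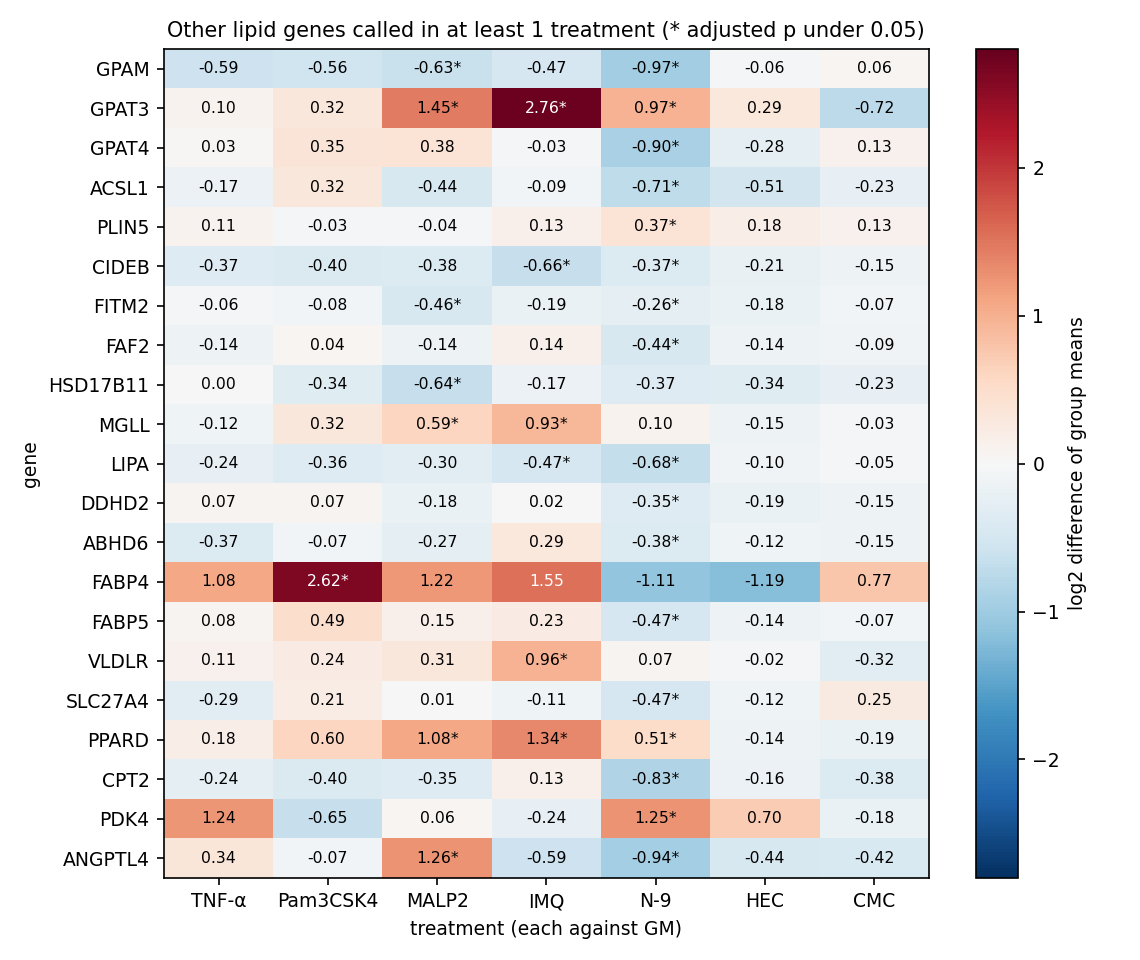
Log2 difference from GM (colour and number) of the 21 genes of the wider lipid list that passed in at least 1 treatment (rows), by treatment (columns). An asterisk marks an adjusted p under 0.05. N-9 has 17 asterisks, 13 of them on negative values, and the gels HEC and CMC have none.

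Genes whose pattern was most like that of G0S2 were sought among 12719 genes at or above the median signal, as a description with no p. Over 103 arrays the highest Pearson correlations were with ODC1 (0.863), which opens polyamine synthesis, PTGS2 (0.848), the inducible cyclooxygenase, SOCS1 (0.846), a brake on cytokine signalling, and EREG (0.830), an EGF receptor ligand, followed by CFLAR, TGFA, PPP4R4 and BMAL2 (0.809 to 0.821). No other member of the lipid set was among them. Over the 53 GM arrays alone the highest were MAP1B (0.807), FYN (0.799), ZNF319, KHNYN, LINC-PINT, CYB5R2, XPNPEP3 and PSAT1 (0.759). The genes of the first list still correlated there at 0.56 (CFLAR) to 0.758 (ODC1), so ODC1 missed the second list narrowly. Those of the second list correlated over all arrays at 0.213 (XPNPEP3) to 0.751 (CYB5R2). The arrays share runs and treatments, so the points are not independent.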

How the data were processed

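RNA of Vk2/E6E7 cells had been hybridised to Affymetrix U133 Plus 2.0 arrays, 105 in all. The values used are the log2 signals that the authors deposited, 1 per probeset and array. MAS5 and GCOS 1.3 are named in the submitters' processing notes, whereas RMA is described in the study's methods; the values look like MAS5 signals, with much noise in dim probesets. Raw probe data were not used here.

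The log2 values were quantile normalized and 54613 non-control probesets were fitted in limma 3.58.1 (R 4.3.3; data.table version 1.17.8), with 8 group means and moderated variances. Each contrast was adjusted by Benjamini-Hochberg. A call is an adjusted p under 0.05. Contrasts between PICs were adjusted over probesets and 9 pairs together. The number of arrays limits the precision. GM replicate 52 and TNF-α replicate 6 were left out. Groups came from the labels, which call the replicates biological.

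Genes were named from the platform annotation (41097 probesets with 1 gene, 1801 with several, 11777 not listed), each by its brightest probeset that names it alone. Genes named are the 8 members and up to 2 called genes per role group and treatment of the wider list (the largest differences). CIDEB, CPT2, GPAT4 and PPARD with N-9 are beyond these 2 and were added after their values were seen. The 8 genes most like G0S2 over all arrays and over GM are named as well. Members and lists were chosen with earlier results of these data known. The procedure was tested on simulated data with independent arrays, which cannot show how it behaves when the arrays of a run deviate together. Alternatives covered the normalization, an offset of 16, filtering, the arrays, blocks, probesets and the methods' analysis of variance. The replicate numbers were checked for pairing: the correlation of same-numbered deviations with GM was over 0.1 in 12 of 50 pairs, which were all pairs of N-9 1 to 6 and HEC 1 to 6 (0.25 to 0.342), and below 0 in N-9 and HEC 7 to 9 (-0.238 to -0.095). Since not every pair passed, the numbers were not taken to pair the arrays. N-9 1 to 6 and HEC 1 to 6 were therefore set against pooled GM arrays, and their differences from the same-numbered GM arrays can be other than those given. The 15 arrays that deviate together were defined by runs correlating above 0.5 with GM run 2, after the data were seen.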

Additional observations from a re-analysis of the deposited data

Results flagged for a closer look

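Of 56 groups of treated arrays tested for a single far value, 2 had one, and chance alone gives about 1 in 20. GM was not among these groups. PLIN2 in IMQ replicate 1 was 8.73, where the other 5 arrays read 9.55 to 9.77. PLIN3 in TNF-α replicate 5 was 10.09, and the other 4 arrays read 10.36 to 10.40.

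The difference of HILPDA between N-9 and GM was -1.12 inside the 15 arrays that deviate together and 0.16 outside them. Outside, N-9 1 to 3 had a mean of 10.257 against 10.803 in GM 1 to 3, so the 0.16 depends on which GM arrays are pooled. The interaction was -1.29 (SE 0.32, adjusted p = 0.00248 in limma, 1 of 21 combinations called, against 12.3% of all probesets for N-9). All 3 N-9 arrays inside lay below all 6 GM arrays inside, an arrangement whose share over all probesets was not counted. Inside the 15 arrays, 13.8% of all probesets were called with N-9. These 3 arrays are a single run, and the part of the run in the difference was not tested.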

How the results depend on the processing

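DGAT2 with IMQ and with N-9 and ABHD5 with IMQ kept their direction and passed under every alternative run (adjusted p in limma at most 0.000189, 3.17e-05 and 0.00159), and the other differences of members from GM did not pass in most of them. The number of members called with N-9, 1 over all arrays, was 2 without quantile normalization (ABHD5, 0.34, adjusted p = 0.0482), with probesets at or above the median only (PNPLA2, adjusted p = 0.0493), and without the 15 arrays, also with runs as a random block (PLIN2). It was 3 when GM replicates 1 to 9 were the sole controls, with the 15 arrays as a block and with the 15 alone. PLIN2 with N-9 turned from -0.20 to 0.856 without the 15 arrays, 0.855 with runs as a random block besides and 0.654 with the 15 as a block. G0S2 with CMC was -0.037 in the 15 alone. The alternatives on the 15 arrays and the omission of single arrays between PICs were chosen after seeing the data. GM replicates 1 to 9, of which 6 are among the 15, gave 1 call for TNF-α, 2 each for Pam3CSK4 and MALP2 and 3 for IMQ, the additions being ABHD5 and HILPDA (with IMQ -0.52, adjusted p = 0.0303). The mean of the probesets of a gene gave 6 of the 10 calls between PICs. The 21 wider genes fell to 13 with all arrays kept, 13 with runs as a random block and 7 when the methods' analysis of variance was joined to a fold over 2. Leaving out single arrays gave 1 to 2 calls with N-9 and 9 to 10 between PICs, and left the other counts as they were. The causes were not tested.

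With the replicate number as a block, although same-numbered arrays deviated together with GM in N-9 1 to 6 and HEC 1 to 6 alone, the members called numbered 1 for TNF-α, 4 for IMQ and 3 each for Pam3CSK4, MALP2 and N-9, the additions being ABHD5, HILPDA and PLIN2 (with N-9 ABHD5 0.911, adjusted p = 2.72e-05, and HILPDA -0.691, adjusted p = 0.000848). This replicate block called, in the order TNF-α, Pam3CSK4, MALP2, IMQ, N-9, HEC and CMC, 7600, 11022, 12441, 14416, 7414, 1 and 1660 probesets, against 393, 1186, 3798, 5936, 9527, 433 and 1 without it. Runs as a random block (correlation 0.438) called 121, 283, 1647, 2894, 4819, 0 and 0, and kept 8 of the 10 calls between PICs (highest adjusted p = 0.11). Without quantile normalization the median of all probesets moved by 0.155 with N-9 and 0.134 with HEC. Dim probesets and 5 to 9 arrays a treatment limit what could be called.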
